A study of Danio rerio with 20 samples.

Results

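The AP-1 and ATF transcription factors were compared between carcinogen-induced liver tumors and normal livers of zebrafish (Danio rerio). Members were all probes with a single gene symbol in the platform annotation that begins with fos or jun, or with atf and a digit. This gave 9 probes of 7 genes, among 5356 named genes and 16512 probes in all. The genes were fosl2 and jun, with 2 probes each, and atf1, atf5a, atf5b, atf6 and atf7ip, with 1 probe each. Other fos, jun and atf genes of zebrafish are not analysed here.

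On each of the 20 arrays, Cy5 marked the liver sample and Cy3 marked RNA of normal liver, the reference. The 10 arrays titled C hold normal liver and the 10 titled T hold liver tumor. The labels give no strain, age, sex, carcinogen, dose or tumor grade, and whether the arrays hold RNA of different fish is not said. The p-values therefore reflect how these samples spread, which may be technical in part. Values are log2 ratios, likely liver sample over reference. The labels list the Cy5 channel first, which is the basis for this direction, and with the opposite direction every sign would turn. A value of 0 means that sample and reference were equal, and ratios of different probes do not rank their mRNA levels.

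AP-1 is a pair of proteins that bind DNA through a basic region and hold together through a leucine zipper. JUN proteins can pair with each other, whereas FOS proteins such as that of fosl2 need a JUN partner. In mice, Jun is needed for liver development and for the growth of hepatocytes after part of the liver is removed. ATF proteins have the same basic leucine zipper fold, and several of them act in stress responses, such as that to unfolded protein in the endoplasmic reticulum.

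Among the 7 genes, fosl2 and atf5a were higher in tumors and no gene was lower (limma with Benjamini-Hochberg adjustment over 15780 features, threshold 0.05). Of all features, 10.8% passed this test, with 5.91% of all features higher and 4.94% lower. The median difference of the members was 0.32 in log2 units, and that of all features was -0.01. The 2 called genes differed in how firmly they passed: fosl2 stood far from the threshold (adjusted p = 0.000144 with limma), while atf5a lay just inside it (adjusted p = 0.0478 with limma).

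**Figure D1:**
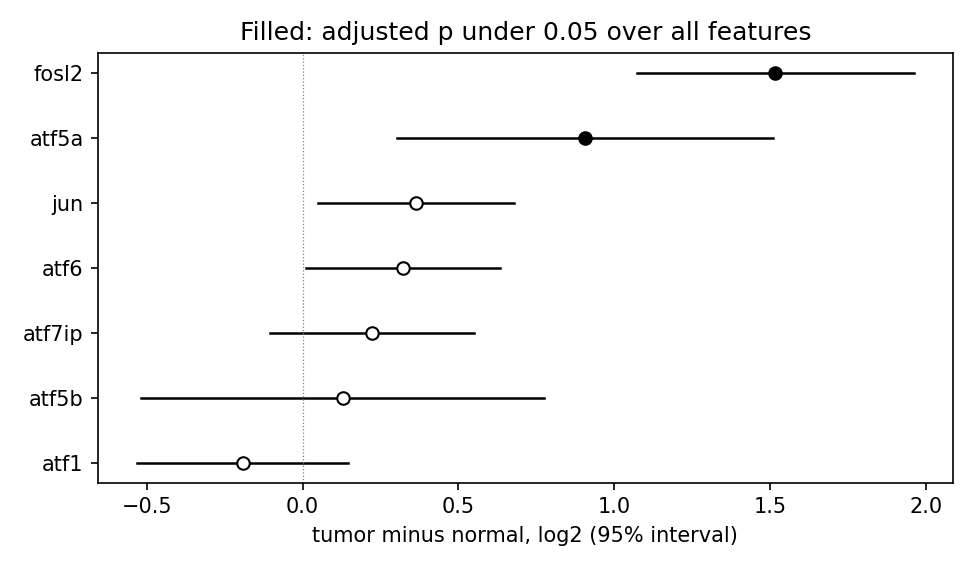
Difference between liver tumors and normal livers (log2, tumor minus normal, x axis) for the 7 genes; points are means over 10 arrays per group, lines are 95% intervals of the limma fit, and filled points passed the adjusted threshold. The interval of fosl2 runs from 1.07 to 1.96 and that of atf5a from 0.30 to 1.51, while those of atf7ip, atf5b and atf1 include 0.

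Fosl2 encodes Fra-2, a FOS family protein. As the mean of its 2 probes, its log2 ratio ran from -2.19 to -0.29 on the 10 normal arrays (median -1.11) and from -0.19 to 0.88 on the 10 tumor arrays (median 0.46). Every tumor array lay above every normal array. Groups that do not overlap were found for 0.526% of all features. The means were -1.1 ± 0.60 in normal liver and 0.42 ± 0.35 in tumors (SD, n = 10 each). Tumors were thus higher by 1.52 ± 0.21 (SE), or 2.86-fold, with a 95% interval of 2.10-fold to 3.89-fold. A two-sided permutation test of this difference alone gave p = 2e-05, the smallest its 100000 resamples could give. Fosl2 had the 26th smallest p of the 5356 named genes, and its increase was the 25th in size of the 405 named genes that rose (7.56% of the named genes).

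Within the normal group fosl2 varied over almost 2 log2 units. Normal replicates 2 and 8 were the highest, at -0.29 and -0.36, and normal replicate 4 was the lowest, at -2.19. In the tumors, replicates 10, 1 and 6 were the highest, at 0.88, 0.82 and 0.73, and replicate 9 was the lowest, at -0.19. All 10 normal arrays were below the reference, whereas 9 of 10 tumor arrays were above it. Leaving out each array in turn moved the tumor minus normal difference of fosl2 between 1.40 and 1.61, and it passed each time (adjusted p up to 0.000446 with limma).

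Both fosl2 probes showed the increase. Probe 1 ran from -2.43 to -0.24 on normal arrays (median -1.18) and from -0.40 to 0.45 on tumor arrays (median 0.18). Here 9 of 10 tumor arrays were above all normal arrays, the exception being tumor replicate 9. Probe 2 ran from -1.95 to -0.30 on normal arrays (median -0.93) and from -0.06 to 1.46 on tumor arrays (median 0.74), with no overlap. The differences were 1.31 ± 0.22 for probe 1 and 1.73 ± 0.25 for probe 2 (SE, limma over the 16512 probes, adjusted p = 0.000722 and 0.000152), where 12.2% of all probes passed. The probes differed from each other in size by -0.42 log2 units, probe 1 less than probe 2, which did not pass a two-sided permutation test on the per-array differences (p = 0.0538). Over the 10 normal arrays the probes correlated at Pearson's r = 0.77 (permutation p = 0.00874, adjusted p = 0.035 over 4 probe relations) and Spearman's rho = 0.75 (permutation p = 0.0179, adjusted p = 0.0714), and without the 2 arrays farthest from the median of probe 1 at r = 0.62. Over the 10 tumor arrays r was 0.50 (permutation p = 0.145, adjusted p = 0.238) and rho was 0.48 (permutation p = 0.169, adjusted p = 0.338), and r fell to 0.15 without the 2 farthest arrays.

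**Figure D2:**
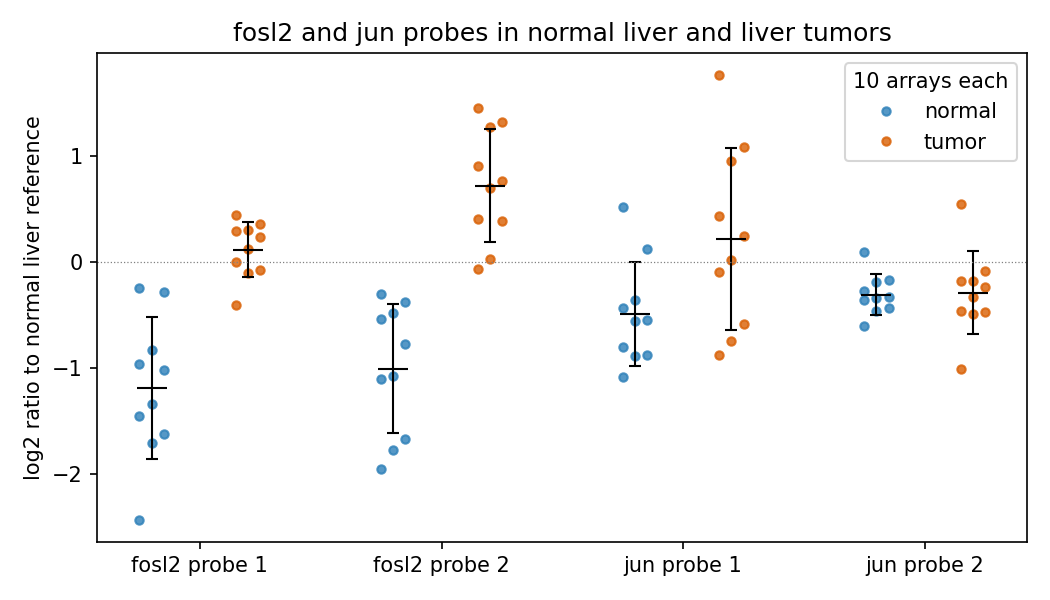
Log2 ratio to the normal liver reference (y axis, likely sample over reference) of each fosl2 and jun probe; each point is 1 array, bars are the mean with its SD, n = 10 per group. Both fosl2 probes are higher in tumors, with means of 0.12 against -1.19 and 0.72 against -1.0, while the jun probes have means of 0.22 against -0.49 and -0.29 against -0.30.

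The arrays also differed in the share of dim spots, counted as the percentage of values equal to a ratio of small whole numbers. It ran from 2.55% to 7.87% on normal arrays and from 0.594% to 7.16% on tumor arrays. Spot brightness itself is not in the data, and some values match such ratios by accident. With its values deliberately shifted, tumor replicate 4 still had 0.424%, beside its share of 0.594%. The means of the share were 5.86% on normal and 1.96% on tumor arrays, so it went largely with the group. A fit with both can separate share and group only in part. With this share as a covariate, the tumor minus normal difference of fosl2 was 1.04 ± 0.28 and missed the threshold (unadjusted p = 0.00125, adjusted p = 0.122 with limma), and over all features the number of calls went from 1712 to 55. Arrays of like share could be set side by side. Tumor replicate 9, with 7.16% dim spots, had fosl2 at -0.19, and the 7 normal arrays with 5.98% to 7.87% ran from -2.19 to -0.60. Tumor replicate 10, with 3.38%, stood at 0.88, and the other 3 normal arrays, with 2.55% to 3.90%, ran from -0.78 to -0.29. Over the 6 normal and 2 tumor arrays in the range that both groups share, an alternative chosen after seeing the data, the difference was 1.40 ± 0.52 (unadjusted p = 0.0229, adjusted p = 0.274 with limma).

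**Figure D3:**
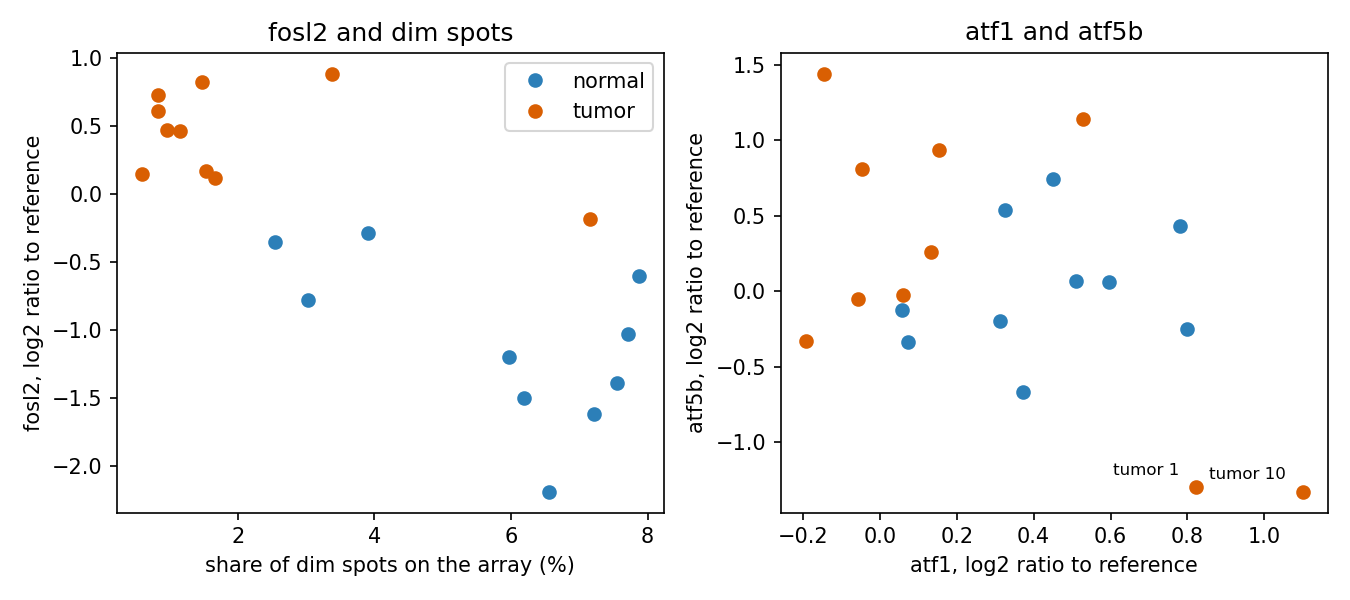
Left, fosl2 (log2 ratio to reference, y axis) against the share of dim spots of the same array (percent, x axis); right, atf5b (y axis) against atf1 (x axis), both log2 ratios; each point is 1 array, 10 normal and 10 tumor. The tumor array with 7.16% dim spots has fosl2 at -0.19, above all normal arrays, and tumor replicates 1 and 10 stand apart at the lower right, with atf5b near -1.3 and atf1 at 0.82 and 1.1.

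Jun is the founding member of the JUN family and a partner of FOS proteins. Its 2 probes, which carry the same source sequence identifier in the annotation, did not move together. Probe 1 ran from -1.08 to 0.52 on normal arrays (median -0.55) and from -0.88 to 1.77 on tumor arrays (median 0.13). The groups overlapped, and 3 tumor arrays, replicates 2, 3 and 6 at 1.77, 1.09 and 0.96, lay above all normal arrays. Probe 2 ran from -0.60 to 0.10 on normal arrays (median -0.33) and from -1.01 to 0.55 on tumor arrays (median -0.28). On probe 2 the tumors with the highest probe 1 values stood inside the normal range.

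The tumor minus normal difference was 0.71 ± 0.29 on jun probe 1 and 0.02 ± 0.15 on jun probe 2 (SE, adjusted p = 0.123 and 0.96 with limma over all probes). The mean of both probes gave 0.36 ± 0.15 (adjusted p = 0.13 with limma). A permutation test of the disagreement, chosen after the values were seen, gave 0.69 (two-sided p = 0.0908). Between the jun probes Pearson's r was -0.44 over the normal arrays (permutation p = 0.179, adjusted p = 0.238) and -0.36 over the tumor arrays (permutation p = 0.302, adjusted p = 0.302), and Spearman's rho was -0.31 and -0.38 (permutation p = 0.386 and 0.278, adjusted p = 0.386 and 0.371). Without the 2 arrays farthest from the median, r was -0.52 and 0.03. The jun estimate thus differed by probe, 0.71 or 0.02, but this disagreement did not pass its permutation test.

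Atf5a encodes an ATF protein that in mammals takes part in stress responses, among them that of mitochondria. It ran from -2.85 to -0.48 on normal arrays (median -1.24) and from -1.98 to 0.62 on tumor arrays (median -0.34). The groups overlapped: 6 of 10 tumor arrays were above all normal arrays, and tumor replicate 7 was the lowest tumor. Atf5a was higher in tumors by 0.91 ± 0.29 (SE), or 1.87-fold, with a 95% interval of 1.23-fold to 2.85-fold. This call was lost without any one of 16 of the 20 arrays (adjusted p up to 0.085 with limma), and it was kept without tumor replicate 7 or normal replicate 2, 8 or 10 (adjusted p as low as 0.0121). With the share of dim spots as a covariate the atf5a difference was 0.60 ± 0.42 (adjusted p = 0.635 with limma).

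Its paralog atf5b did not pass. It ran from -0.66 to 0.74 on normal arrays (median -0.03) and from -1.33 to 1.44 on tumor arrays (median 0.12), so that the tumors spread on both sides of the normal livers. The tumor minus normal difference was 0.13 ± 0.31 (adjusted p = 0.829 with limma). The SD was 0.96 over the tumor arrays and 0.43 over the normal arrays.

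Atf1, a relative of the cyclic AMP responsive factor CREB, ran from 0.06 to 0.80 on normal arrays (median 0.41) and from -0.19 to 1.1 on tumor arrays (median 0.10). The groups overlapped, with 4 tumor arrays below and 2 above all normal arrays. Its difference was -0.19 ± 0.16 (adjusted p = 0.479 with limma). The 2 highest atf1 values of the tumors belonged to the same arrays as the 2 lowest atf5b values: tumor replicate 1 had atf1 at 0.82 and atf5b at -1.30, and tumor replicate 10 had 1.1 and -1.33. Without these arrays the atf1 difference was -0.37 and that of atf5b was 0.50 (adjusted p = 0.0672 and 0.206 with limma). As these arrays hold the extreme values, leaving them out had to lower the atf1 difference and raise that of atf5b. No conclusion is drawn from this shift.

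Atf6 encodes a membrane protein of the endoplasmic reticulum that is cut and moves to the nucleus when unfolded protein builds up. It ran from -1.16 to 0.15 on normal arrays (median -0.55) and from -0.39 to -0.05 on tumor arrays (median -0.20). The tumor values all lay inside the normal range and spread less, with an SD of 0.13 against 0.43. The tumor minus normal difference of atf6 was 0.32 ± 0.15 (unadjusted p = 0.0437, adjusted p = 0.177 with limma). It was -0.06 ± 0.19 with the share of dim spots as a covariate.

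Atf7ip is a member by its name only. Its product binds ATF7 and the histone methyltransferase SETDB1 in mammals and is no basic leucine zipper protein. It ran from 0.47 to 1.26 on normal arrays (median 0.65) and from 0.22 to 1.48 on tumor arrays (median 1.1), and the groups overlapped. Its difference was 0.22 ± 0.16 (adjusted p = 0.387 with limma).

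**Figure D4:**
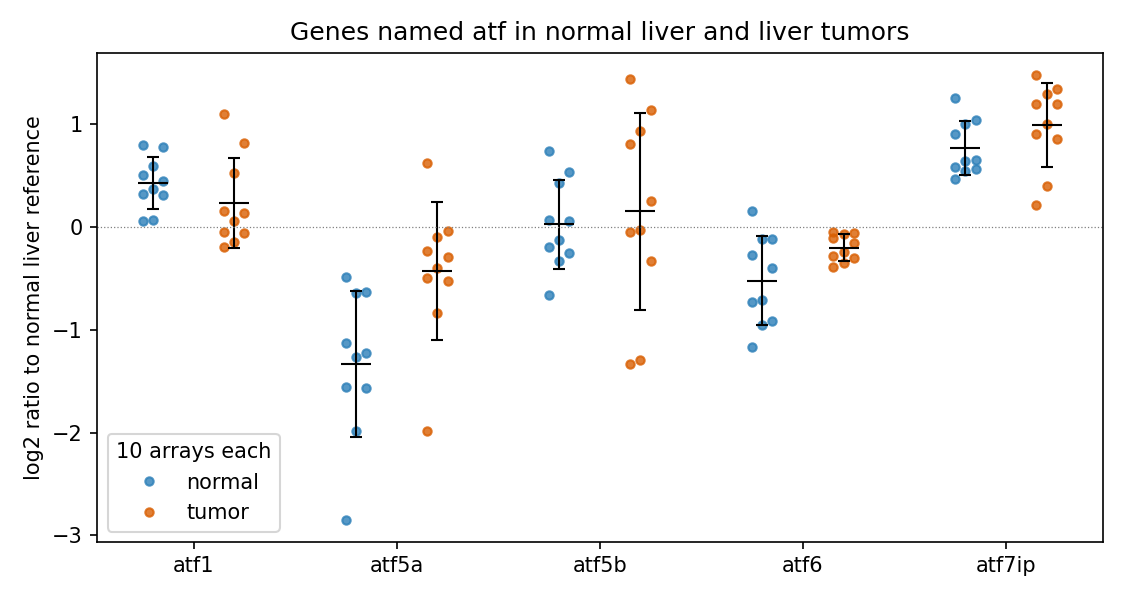
Log2 ratio to the normal liver reference (y axis, likely sample over reference) of the 5 genes named atf; each point is 1 array, bars are the mean with its SD, n = 10 per group. For atf5a the tumor mean is -0.43 against -1.33, atf6 is spread less in tumors (SD 0.13 against 0.43), and atf5b is spread more (0.96 against 0.43).

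Set against the reference, 6 of the 7 genes differed in normal liver (limma, mean of the 10 normal arrays against 0), where 25% of all features did, with 11.4% of all features higher and 13.6% lower. No array had the dyes swapped, so an effect of the dye and a difference from the reference RNA cannot be told apart. Lower than the reference were atf5a (-1.33 ± 0.21, SE), fosl2 (-1.1 ± 0.15), atf6 (-0.52 ± 0.11) and jun (-0.40 ± 0.11), with adjusted p from 2.98e-05 to 0.00953. Higher were atf7ip (0.77 ± 0.11) and atf1 (0.43 ± 0.12), with adjusted p = 5.3e-05 and 0.00933, and atf5b stood at 0.03 ± 0.22 (adjusted p = 0.947). The tumor mean lay nearer to the reference than the normal mean for the 4 genes that were lower in normal liver, and for atf1, but not for atf7ip. Calling genes for a normal mean away from 0 favours this pattern. Its share over all features was not computed, so it is not read as particular to these genes.

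The co-variation of fosl2 with the other 6 genes was examined within each group, in 12 relations. With atf5a, Pearson's r was 0.66 over the 10 normal arrays (permutation p = 0.0424, adjusted p = 0.509) and Spearman's rho was 0.84 (permutation p = 0.00356, adjusted p = 0.0427), with r = 0.71 without the 2 arrays farthest from the median of fosl2. Over the 10 tumor arrays r with atf5a was 0.52 (permutation p = 0.135, adjusted p = 0.539) and rho was 0.65 (permutation p = 0.0505, adjusted p = 0.303), with r = 0.62 without the 2 farthest. With jun, r was -0.15 over the normal arrays and 0.10 over the tumor arrays (permutation p = 0.658 and 0.775, adjusted p = 0.959 for both), and rho was 0.01 and -0.03 (permutation p = 1 and 0.949, adjusted p = 1 for both). Without the 2 farthest arrays r with jun was -0.56 and -0.15. The Spearman relation of fosl2 and atf5a in normal liver alone passed the adjusted threshold of the 12, and 0 of 12 passed with Pearson's r (lowest permutation p = 0.0424, adjusted p = 0.509). Over the normal arrays the share of dim spots had r = -0.55 with fosl2 and -0.44 with atf5a (permutation p = 0.0921 and 0.178, adjusted p = 0.414 for both). The part of dim spots in the relation of fosl2 and atf5a was not tested.

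The named genes whose pattern was most like that of fosl2 were taken from the correlation over the 20 arrays after each group mean had been subtracted, among 5355 others. They were kri1, known from yeast for making the small ribosomal subunit (r = 0.80), the uridine-cytidine kinase uck2a (0.80), mier2 (0.80), the microtubule-associated map7b (0.75) and the serine/threonine kinase pim1 (0.75). They were picked as the highest of many, and no p is given. In the same order, r was 0.79, 0.88, 0.89, 0.81 and 0.75 within the normal arrays. Within the tumor arrays it was 0.84, 0.48, 0.48, 0.53 and 0.75, so uck2a, mier2 and map7b were less like fosl2 there. Over the 20 arrays without the 2 farthest from the median of fosl2, r was 0.82, 0.77, 0.69, 0.59 and 0.69 for the 5 genes in that order. Of these, kri1 differed between tumor and normal by 0.51 ± 0.23 and did not pass (adjusted p = 0.155 with limma). The other 4 were higher in tumors: pim1 by 1.13 ± 0.33, map7b by 0.86 ± 0.16, uck2a by 0.84 ± 0.20 and mier2 by 0.65 ± 0.19 (adjusted p = 0.0297, 0.00167, 0.00817 and 0.0333 with limma). Of the named genes 7.56% were called higher. With the share of dim spots as a covariate 55 features passed, against 1712, and whether these 4 were among them is not given here. In the correlation with fosl2 over the 20 arrays, atf5a ranked 114th of the 5355 genes (r = 0.59) and jun 2764th (r = -0.02).

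Genes around these factors were read from lists of partners, kinases and targets. These lists were chosen with earlier results of these data known. Their counts beside the shares of all features are therefore descriptive, and the activity of the factors was not tested. The listed genes are all named genes, of which 7.56% were called higher, more than the 5.91% of all features. Other basic leucine zipper genes that can pair with AP-1 or ATF proteins, or are related to them, numbered 11 measured genes, of which 1 rose and 0 fell, a share of 9.09% called, near the 10.8% of all features. The one that rose was cebpg, a partner of ATF4 in mammals (0.64 ± 0.15, adjusted p = 0.00757 with limma). The hepatocyte factor cebpa (0.97 ± 0.33) and the clock output factor tefa (-0.94 ± 0.35) did not pass (adjusted p = 0.062 and 0.0905). The list median was 0.23, and -0.06 with the share of dim spots as a covariate, where 0 of 11 passed and 3 had an unadjusted p under 0.05. In that fit 10.8% of all features had an unadjusted p under 0.05.

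MAP kinases, which can phosphorylate JUN and ATF proteins, gave no call, nor did their activators and related kinases. Of 13 measured genes limma called 0, 2 had an unadjusted p under 0.05 (26.1% of all features had one), the rank-sum test called 0, and the median difference was 0.03. The smallest p belonged to the kinase map3k4 (0.48 ± 0.17, adjusted p = 0.0665), mapk3 (0.43 ± 0.18, adjusted p = 0.134) and mapk12b (-0.32 ± 0.17, adjusted p = 0.235).

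Other immediate early genes, which in mammals respond to growth signals on the time scale of fos and jun, gave 1 increase and 1 decrease among 27 measured genes, with a median of 0.07. The share called was 7.41%, and that of all features 10.8%. The factor klf6a rose by 0.73 ± 0.22 and the RNA-binding protein gene zfp36l1b changed by -1.76 ± 0.35 (adjusted p = 0.0345 and 0.00261 with limma). Nr4a2a, a nuclear receptor gene, stood at -0.56 ± 0.18 and did not pass (adjusted p = 0.0522). With the share of dim spots as a covariate 0 of the 27 passed. In that fit 7 of the 27 had an unadjusted p under 0.05, as did 10.8% of all features.

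Genes known from mammals as AP-1 targets held 6 increases and 1 decrease among 14 measured genes, with a median difference of 0.53. Of all features 5.91% were called higher and 4.94% lower, with a median difference of -0.01. The integrin itgb1b rose by 1.34 ± 0.24, with log2 ratios of 0.19 to 2.64 on tumor arrays and -0.87 to 0.30 on normal arrays. The cyclin ccnd1 rose by 1.25 ± 0.31, and the other increases were fn1a, timp2a, mmp14b and mmp14a, genes of the extracellular matrix and of its proteases and their inhibitors. Of these, fn1a lay nearest to the threshold (adjusted p = 0.044 with limma) and was not called by the rank-sum test, with the replicate block, with the dim share, without tumor replicates 1 and 10, or without normal replicate 8 and tumor replicate 10. The vessel growth factor vegfab changed by -1.36 ± 0.25 (adjusted p = 0.00144, 0.0112 and 0.00144 with limma for itgb1b, ccnd1 and vegfab). Of the 14 genes, 0 passed with the share of dim spots as a covariate, 10 had an unadjusted p under 0.05 there (10.8% of all features), and the median was 0.88. The rank-sum test called 5 increases and 1 decrease, and without tumor replicates 1 and 10 the list had 4 increases and 1 decrease. The mmp14a call was lost with the replicate block, and the mmp14b call was lost without tumor replicates 1 and 10.

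Genes known from mammals as ATF4 targets held 7 increases and 0 decreases among 19 measured genes, with a median of 0.42, where 5.91% of all features were called higher. The atf4 genes themselves are not analysed here. The tRNA synthetase genes yars1 (1.34 ± 0.16), lars1b (0.82 ± 0.16) and sars1 (0.61 ± 0.19) rose. So did the amino acid transporter slc7a3a (2.13 ± 0.52), the transporter subunit slc3a2b (0.90 ± 0.23), the mitochondrial folate enzyme mthfd2 (0.75 ± 0.20) and cebpg. Adjusted p of the 7 genes ran from 2.78e-05 to 0.0368 with limma. The sars1 call was lost with the rank-sum test and with the replicate block, and the mthfd2 call was lost with the replicate block. With the share of dim spots as a covariate 1 of the 19 passed, yars1, where 55 passed over all features. In that fit 7 of the 19 had an unadjusted p under 0.05 (10.8% of all features), and the list median was 0.10. Genes known as ATF6 targets or of the unfolded protein response held 6 increases and 1 decrease among 15 measured genes, with a median of 0.72, where 5.91% of all features were called higher and 4.94% lower. The chaperone genes sdf2l1 (1.93 ± 0.36), dnajb11 (1.54 ± 0.28), hyou1 (1.51 ± 0.31), canx (1.06 ± 0.18) and dnajc3b (0.98 ± 0.18) rose, as did the ubiquitin ligase gene syvn1 (0.72 ± 0.23). The gene of the site-2 protease, mbtps2, which in mammals cuts ATF6, changed by -0.41 ± 0.13 (adjusted p = 0.0402 with limma). The mbtps2 call was lost with the replicate block, without tumor replicates 1 and 10, and without normal replicate 8 and tumor replicate 10, and the syvn1 call was lost with the replicate block and the rank-sum test. With the dim share as a covariate 0 of the 15 passed, 5 had an unadjusted p under 0.05 (10.8% of all features), and the median was 0.55.

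Markers of liver cells and of other tissues were read against the same background, 5.91% of all features called higher and 4.94% lower. Of the named genes 7.56% were called higher. Of 8 measured hepatocyte markers 6 fell and 0 rose, and their mean log2 ratio ran from -3.38 to -0.96 on tumor arrays and from -0.42 to 0.52 on normal arrays. Of 5 bile duct and epithelial markers 1 rose (means of 0.26 to 2.20 on tumor and -0.26 to 2.08 on normal arrays). Of 4 measured genes from an ovary list 2 rose (-2.0 to 1.87 and -3.62 to 1.99). That list also holds the cell division cyclin ccnb1, so it is not specific to ovary. Among 5 erythrocyte genes 1 fell (-1.28 to 1.13 and 0.03 to 0.72). Of 7 leukocyte, 4 stellate or fibroblast, 2 endothelial and 4 exocrine pancreas markers limma called 0, as did the rank-sum test. In the same order, 1, 2, 1 and 3 of these markers had an unadjusted p under 0.05 (26.1% of all features had one). Their mean log2 ratios overlapped between the groups, and on the pancreas markers they ran from -4.91 to 0.90 on tumor and from -3.28 to 2.71 on normal arrays. The part of the cell mix in the fosl2 and atf5a differences was not tested. In such tissue RNA, fewer cells of a type and less RNA per cell cannot be told apart.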

How the data were processed

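Liver RNA of 10 tumor and 10 normal samples was measured on 2-colour arrays against normal liver RNA, with no dye swap, per the labels. The deposited table holds log2 ratios for 16512 probes, with 0 missing values. The base was read from the spacing of repeated values. How background was corrected and arrays were normalized is not given in the sources used here. Array medians ran from -0.141 to 0.205. Single symbols of the platform annotation were updated through Entrez numbers in a RefSeq gene table (assembly GRCz12tu), which matched 6019 of 6088 probes. Probes of 1 symbol were averaged per array, leaving 15780 features.

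R 4.3.3 with limma 3.58.1 (lmFit, then eBayes) was used to compare groups, after a test on simulated data, with Benjamini-Hochberg adjustment over all features and a threshold of 0.05. Probes were also fitted one by one. Permutation tests used 100000 resamples in Python 3.11.15 with scipy 1.17.1. After 1 constant per array, a value was called dim where it equalled, within 0.00011, log2 of a quotient of whole numbers no larger than 10. Named were all members, the 3 smallest p of each list, 5 genes most like fosl2, and the other called members of the target lists, added after their values were seen. Members and lists were chosen with earlier results of these data known. Spot brightness is not in the table, and the number of arrays limits the precision. Alternatives covered probe averaging, scaling, the variance model, the test, a filter, dim spots, the replicate number and left-out arrays.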

Additional observations from a re-analysis of the deposited data

How the results depend on the processing

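The fosl2 difference kept its direction under all 31 alternatives (1.04 to 1.78) and passed under 29 of them. The exceptions were the share of dim spots as a covariate (1.04) and the arrays in the shared range of dim spots (1.40, chosen after seeing the data). The count of called members, 2, was 1 with arrays centred on their medians, quantile normalization, eBayes with trend and robust, without tumor replicates 1 and 10, and without normal replicate 8 and tumor replicate 10. It was 0 with the share of dim spots as a covariate and in their shared range, and 1 to 2 without each array in turn. In these cases atf5a lost its call (0.94, 0.73, 0.91, 0.73, 0.94, 0.60 and 0.96 in the order given). Without normal replicates 2, 5 and 8, left out after seeing the data, the atf6 difference passed, at 0.53. These have the fewest dim spots of the normal arrays, so leaving them out widens the gap in dim share between the groups. Against the reference, 6 genes were called under each of 3 scaling and variance alternatives. Between tumor and normal, 2 to 3 of the 9 single probes were called under the same alternatives. In the main fit 3 were called, where 12.2% of all probes passed. The fosl2 probe difference ran from -0.42 to -0.31 and missed the threshold each time.

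With the share of dim spots as a covariate, atf1 turned to 0.18 and atf6 to -0.062, and in the shared range atf1 turned to 0.55, atf6 to -0.029 and atf5b to -0.087. Without each array in turn, or without normal replicate 8 and tumor replicate 10, atf5b ran from -0.014 to 0.372. None of these passed in either form, and the cause was not tested. Over all features 2622 passed with quantile normalization, 55 with the dim share and 38 in its shared range, against 1712. The share of higher calls, 54.5%, was 21.8% with the dim share as a covariate and 63.2% in its shared range.

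The labels do not say whether equal replicate numbers pair a normal and a tumor sample. Same-numbered deviations correlated at -0.152 to 0.122, and 1 of 10 tumor arrays correlated best with its own number. These values show no sign of pairing but cannot exclude it. With the number as a replicate block, 1 member was called, fosl2 (1.52, adjusted p = 0.00155 with limma), atf5a stood at 0.91 (adjusted p = 0.0941), and 1253 features passed.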

Other observations

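The share of dim spots was set against each of the 7 genes within each group, in 14 relations over 10 arrays each. The largest rho was with atf1 over the tumor arrays, where Spearman's rho was 0.88 (permutation p = 0.0015, adjusted p = 0.021) and Pearson's r was 0.55 (permutation p = 0.197, adjusted p = 0.414; 0.65 without the 2 arrays farthest from the median share). With atf6 over the normal arrays r was -0.79 (permutation p = 0.0076, adjusted p = 0.106; -0.61 without the 2 farthest) and rho was -0.70 (permutation p = 0.0299, adjusted p = 0.209). With fosl2 r was -0.55 over the normal arrays and -0.44 over the tumor arrays (permutation p = 0.0921 and 0.236, adjusted p = 0.414 for both), and rho was -0.35 and -0.18 (permutation p = 0.332 and 0.628, adjusted p = 0.78 and 0.879). Without the 2 farthest arrays r with fosl2 was -0.32 and -0.18.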
